A study of Mus musculus with 308 samples.

Results

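Dimethyl fumarate (DMF) and monoethyl fumarate (MEF) were compared directly in mouse brain, as 7 arrays from mice given MEF salts against 7 arrays from mice given DMF. The arrays were chosen by their titles, which name the tissue and the treatment, and they are 14 of the 46 brain arrays and of the 308 arrays of the series. All mice were C57Bl/6. Those of every brain group but the one labelled Nav, for which the sample labels give no dosing, were dosed once daily for 10 days. They gave tissue 12 h after the last dose. MEF was given at 79.2 mg/kg as a mixture of its calcium, magnesium and zinc salts (MEF79.2), and DMF at 100 mg/kg (DMF100), so the doses differed. The other brain groups were DMF at 179.2 mg/kg (DMF179.2, 8 arrays), DMF100 together with MEF79.2 (the combination, 8 arrays), a group labelled Nav, a name left unexplained in the sources used here (8 arrays), and vehicle, which was 0.8% HPMC (hydroxypropyl methylcellulose, 8 arrays). Sex, age and the part of the brain are not given in the sources used here, and the RNA is bulk RNA of the tissue. Each value is a log2 expression level from an Affymetrix HT MG-430 PM array, and a difference of 1 on this scale is a doubling.

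DMF is fumarate with both acid groups methylated, and MEF is fumarate with a single ethyl ester. Fumarate esters react with thiols, among them cysteines of KEAP1, the protein that keeps the transcription factor NRF2 at a low level. NRF2 then drives genes of quinone reduction, glutathione use and thiol repair through antioxidant response elements, and Nqo1 and Gstm1 are among the genes used to read it out. Immediate early genes such as Nr4a1 and Arc are a separate class: neurons induce them within minutes of activity, often through cyclic AMP response elements. The comparison asks which brain genes differ between animals given one ester and animals given the other.

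All 10 pan-neuronal markers lay above the expression filter, which kept genes above the median brain value of 5.79 in at least 5 brain arrays, with mean levels per array between 10.84 and 11.12 under MEF79.2 and between 10.98 and 11.07 under DMF100, and none of 8 pituitary hormone genes passed it. Replicate 25 of MEF79.2 stood apart from its group. Its median correlation with its group was 0.987, against 0.992 to 0.996 for the other arrays of both groups, and the 3 prime minus 5 prime signal of its actin and Gapdh controls, a measure of RNA integrity, was 1.38. Replicate 28 of MEF79.2 had the next highest 3 prime minus 5 prime signal, 1.16, while the DMF100 arrays lay between 0.962 and 1.07. The signal of the hybridisation controls averaged 12.30 ± 0.06 under MEF79.2 and 12.22 ± 0.07 under DMF100 (SD, n = 7 each), and an exact two-sided permutation test gave p = 0.0484, or 0.145 after adjustment over 3 quality measures. No 2 brain arrays held identical values.

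Differences between the esters in brain were many but small. Of 10763 genes tested with limma, 380 (3.53%) passed an adjusted p of 0.05 (Benjamini-Hochberg) and are referred to as called, 285 higher (2.65%) and 95 lower (0.883%) under MEF79.2. The median size of a called difference was 0.23 for genes that rose, or 1.17-fold, and 0.24 for genes that fell, or 1.18-fold. Only 3 called genes differed by 1.5-fold or more, Slc47a1, which was higher under MEF79.2, and Nr4a1 and Trib1, which were lower. The groups did not overlap for 50 genes (0.465%), and the called genes among these were 22 that rose and 16 that fell. The median difference over all tested genes was 0.01. The number of calls depended strongly on the fit: it was 4 when the MEF79.2 and DMF100 arrays were fitted without the other groups, 5 with the hybridisation control signal as a covariate, and 25 without replicates 25 and 28 of MEF79.2. Leaving out single arrays gave between 80 genes, without DMF100 replicate 11, and 802, without MEF79.2 replicate 26, and 71 of the 380 were called in all 14 such fits.

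**Figure D1:**
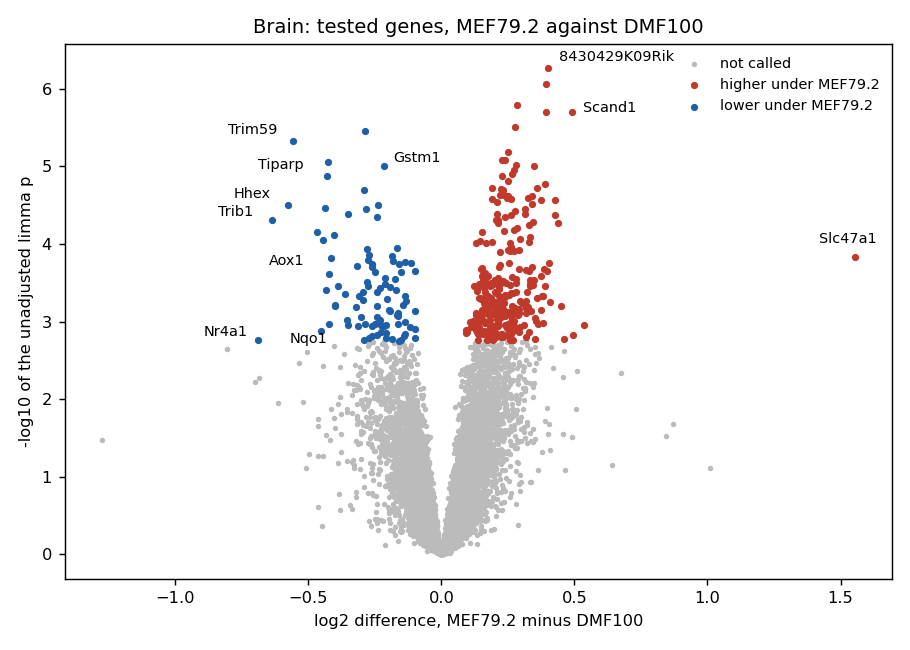
Each point is 1 of 10763 tested genes in brain, with the log2 difference of MEF79.2 minus DMF100 on the x axis and -log10 of the unadjusted limma p on the y axis. The 285 genes called higher under MEF79.2 are red and the 95 called lower are blue, and all called genes except Slc47a1, at 1.55, lie within 1 log2 unit of 0.

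Targets of NRF2 were lower under MEF79.2 than under DMF100 at 4 of 34 tested members, Nqo1, Gstm1, Aox1 and Prdx1, and 0 were higher (0.883% of all genes were called lower). In all, 28 of the 34 had a difference below 0, against 45.4% of all tested genes, and the median difference of the list was -0.04. Set against vehicle, MEF79.2 raised 0 of the 34, where 0.307% of all genes rose. DMF100 raised 3, Gstm1, Aox1 and Nqo1, where 0.372% of all genes rose. At an unadjusted limma p under 0.05, in either direction, 5 differed from vehicle under MEF79.2 and 11 under DMF100. Members above vehicle were 25 under MEF79.2 and 30 under DMF100, against 58.2% and 51.3% of all tested genes. The list's median against vehicle was 0.02 under MEF79.2 and 0.07 under DMF100. Both comparisons use the same vehicle arrays. Between the esters, 0 of the 34 were called when only their arrays were fitted, with the hybridisation control signal as a covariate, or without replicates 25 and 28 of MEF79.2, where Nqo1 differed by -0.41 (adjusted p = 0.0930). With array weights 1 was called, Gstm1.

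Nqo1 encodes a quinone reductase and is a standard readout of NRF2. Its level was 7.77 to 8.49 under MEF79.2 (median 8.21), against 8.43 to 8.71 under DMF100 (median 8.50) and 7.80 to 8.27 in vehicle brains (median 8.13). Of the MEF79.2 arrays, 6 of 7 lay below every DMF100 array, and the highest, at 8.49, lay above every vehicle array. The difference was -0.35 ± 0.10 (SE, adjusted p = 0.0398). Against vehicle, Nqo1 stood at 0.11 under MEF79.2 (adjusted p = 0.544) and 0.47 under DMF100 (adjusted p = 0.0114). The direct call was lost in 13 of 26 alternatives, among them the removal of DMF100 replicates 9, 10, 11 or 15 and of MEF79.2 replicates 28, 29 or 30.

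Gstm1, a glutathione transferase of the mu class, was measured with less spread. Its levels ran from 11.72 to 11.97 under MEF79.2 (median 11.92), from 12.05 to 12.16 under DMF100 (median 12.10), and from 11.84 to 12.02 in vehicle brains (median 11.87). The esters did not overlap, and the MEF79.2 arrays lay around the vehicle level. The difference was -0.21 ± 0.04 (adjusted p = 0.00709), with -0.0048 against vehicle under MEF79.2 (adjusted p = 0.967) and 0.21 under DMF100 (adjusted p = 0.00604).

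Aox1, an aldehyde oxidase, showed the same arrangement at a lower level. It ranged from 7.92 to 8.35 under MEF79.2 (median 8.07), from 8.41 to 8.81 under DMF100 (median 8.44) and from 7.87 to 8.32 in vehicle brains (median 8.13), and the esters again did not overlap. The difference was -0.42 ± 0.10 (adjusted p = 0.0193). Prdx1, a peroxiredoxin that reduces hydrogen peroxide, differed by -0.10 ± 0.02 (adjusted p = 0.0227), with 6 of 7 MEF79.2 arrays below all DMF100 arrays. Mgst1, a microsomal glutathione transferase kept in the list of glutathione genes, differed by -0.42 ± 0.11 (adjusted p = 0.0236), with medians of 8.82 under MEF79.2 and 9.19 under DMF100 and 5 of 7 MEF79.2 arrays below all DMF100 arrays.

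The antioxidant genes named next gave no call between the esters, whereas Gpx4 and Oplah, of the glutathione list, were called higher under MEF79.2. Where given, 95% intervals bound the difference. Hmox1, which degrades haem, averaged 6.62 under MEF79.2 and 6.47 under DMF100, a difference of 0.15 with a 95% interval of -0.04 to 0.34. Srxn1, which repairs oxidised peroxiredoxins, differed by -0.02 (-0.09 to 0.05), and Txnrd1, thioredoxin reductase, by -0.03 (-0.10 to 0.03). The subunits of glutamate-cysteine ligase, Gclc and Gclm, stood at -0.04 and -0.09 (adjusted p = 0.851 and 0.560). Slc7a11, Gsta4, Cbr3 and Nfe2l2, which encodes NRF2 itself, lay between -0.08 and 0.03 with adjusted p of 0.430 or more. Osgin1 was below the expression filter in brain and was not tested.

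In the group that received both esters, Nqo1, Gstm1 and Aox1 were higher than under MEF79.2. Nqo1 was higher in the combination than under MEF79.2 by 0.51 ± 0.10 (adjusted p = 0.0149), Gstm1 by 0.28 ± 0.04 (adjusted p = 3.85e-04) and Aox1 by 0.43 ± 0.10 (adjusted p = 0.0357). These were 3 of the 34 NRF2 targets, in a comparison that called 9 genes higher (0.0836%). Against DMF100 alone the combination called 0 of the 34 in limma, also at an unadjusted p under 0.05 (0.0929% of all genes called), with differences of 0.16 for Nqo1, 0.06 for Gstm1 and 0.02 for Aox1. DMF179.2 against vehicle raised 11 of the 34 (1.09% of all genes called, 1.01% higher), Nqo1 by 0.90 and Aox1 by 0.85. The combination against vehicle raised 3 of the 34 (0.297% of all genes called, 0.204% higher), again Gstm1, Aox1 and Nqo1.

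**Figure D2:**
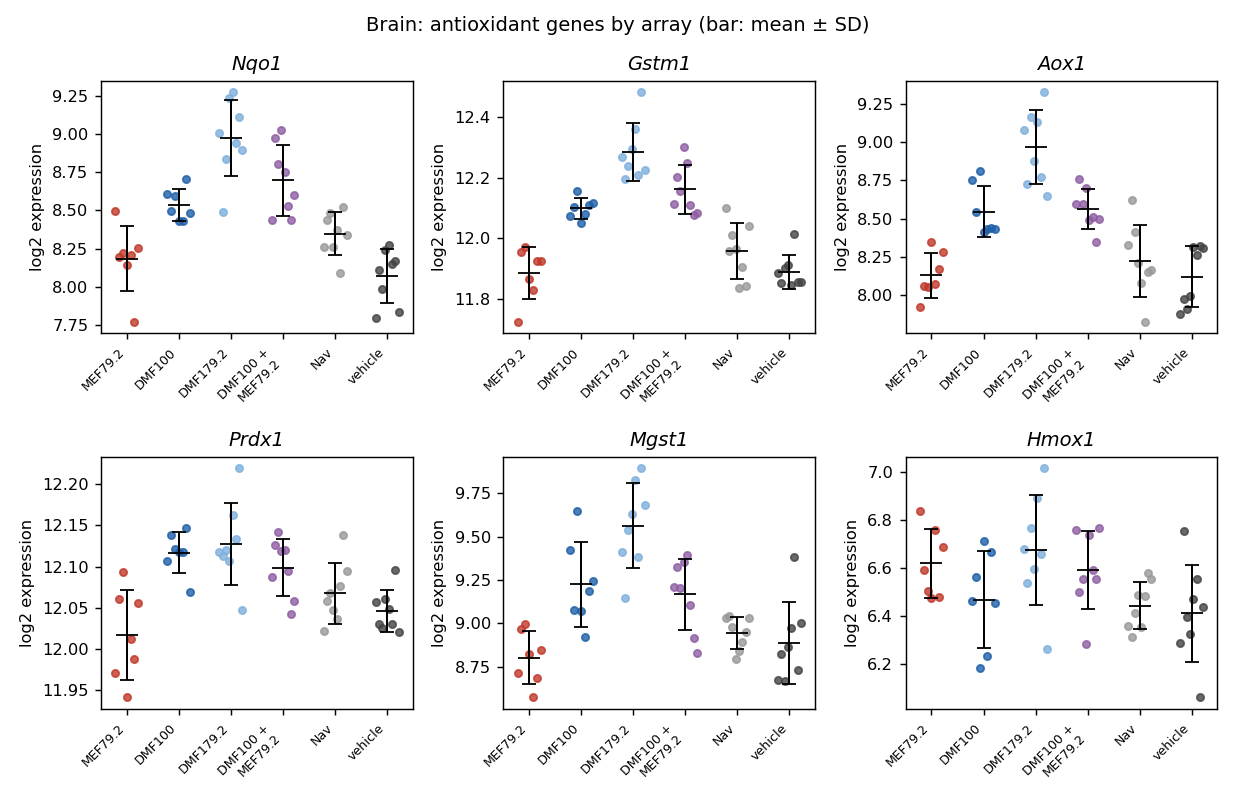
Points are log2 expression levels of single brain arrays in 6 treatment groups for 6 antioxidant genes, and bars are the mean ± SD of the group. Gstm1 and Aox1 do not overlap between MEF79.2 and DMF100, the MEF79.2 arrays lie near the vehicle arrays, and Hmox1 shows no such split.

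Promoter windows are shown for Prdx1 and Mgst1, the lowered antioxidant genes that hold the core of the antioxidant response element. The core was searched as TGACNNNGC on both strands in the 300 bases around each start site given by RefSeq for GRCm38.p6, and 12.4% of 32851 such windows hold it. Prdx1 (chr4:116685349-116685648, plus strand) carries it at -133 from the start site and the first of 2 Mgst1 windows (chr6:138140277-138140576, plus strand) at -56, both as its reverse complement, which the capitals mark. The windows of Gstm1, Aox1 and Nqo1 do not hold these letters.
Prdx1: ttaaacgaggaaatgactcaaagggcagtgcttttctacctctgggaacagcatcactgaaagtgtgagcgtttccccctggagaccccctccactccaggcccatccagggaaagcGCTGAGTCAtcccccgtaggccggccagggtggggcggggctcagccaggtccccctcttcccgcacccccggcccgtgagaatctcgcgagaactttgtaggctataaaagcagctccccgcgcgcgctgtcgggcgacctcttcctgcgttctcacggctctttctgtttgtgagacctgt
Mgst1: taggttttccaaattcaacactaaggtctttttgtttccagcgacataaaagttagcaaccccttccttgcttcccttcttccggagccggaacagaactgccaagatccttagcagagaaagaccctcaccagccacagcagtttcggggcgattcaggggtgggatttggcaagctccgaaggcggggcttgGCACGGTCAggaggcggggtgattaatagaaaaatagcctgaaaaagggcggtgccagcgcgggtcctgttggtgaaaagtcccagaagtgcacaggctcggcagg

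Immediate early genes were lower under MEF79.2 at 3 of 26 tested members, Nr4a1, Trib1 and Dusp1, and 0 were higher (0.883% of all genes were called lower). The median of the list was -0.07, and 16 of the 26 lay below 0. The called genes were Arc and Nr4a1 when only the MEF79.2 and DMF100 arrays were fitted, and 0 were called with the hybridisation control signal as a covariate or without replicates 25 and 28 of MEF79.2, where Trib1 differed by -0.52 (adjusted p = 0.0947). With array weights 1 was called, Trib1. Set against vehicle, MEF79.2 raised 1 of the 26, the clock gene Per1, where 0.307% of all genes rose. DMF100 raised 9, where 0.372% of all genes rose, namely Trib1, Dusp1, Nr4a1, Arc, Klf10, Fos, Dusp6, Per1 and Egr2. At an unadjusted limma p under 0.05, in either direction, 11 differed from vehicle under MEF79.2 and 16 under DMF100. The list's median against vehicle was 0.14 under MEF79.2 and 0.18 under DMF100, and 20 members under MEF79.2 and 18 under DMF100 lay above vehicle. Per1 stood 0.79 above vehicle under MEF79.2 and 0.66 under DMF100 (adjusted p = 0.00132 and 0.00360). Per1 did not differ between the esters beyond its error (0.13 ± 0.13, adjusted p = 0.599).

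Nr4a1, an orphan nuclear receptor, gave the largest decrease of all called genes. Its level was 7.63 to 8.02 under MEF79.2 (median 7.78), against 8.11 to 8.75 under DMF100 (median 8.47), so the esters did not overlap. Vehicle brains ranged from 6.23 to 8.18 (median 6.97), and 1 vehicle array lay above all MEF79.2 arrays. The difference was -0.69 ± 0.21 (adjusted p = 0.0493), or -0.69 ± 0.09 (adjusted p = 0.00957) when only the MEF79.2 and DMF100 arrays were fitted, and the call was lost in 16 of 26 alternatives. Against vehicle Nr4a1 stood at 0.70 under MEF79.2 (adjusted p = 0.0768) and 1.39 under DMF100 (adjusted p = 6.03e-05).

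Trib1 encodes a pseudokinase that steers proteins to degradation. It ranged from 6.49 to 7.40 under MEF79.2 (median 7.01), from 7.51 to 7.87 under DMF100 (median 7.71), and from 6.31 to 7.53 in vehicle brains (median 6.66). The esters did not overlap, and a single vehicle array reached the DMF100 range. The difference was -0.63 ± 0.14 (adjusted p = 0.00990), with 0.34 against vehicle under MEF79.2 (adjusted p = 0.179) and 0.97 under DMF100. Trib1 kept its call in 22 of 25 alternatives.

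Dusp1, a phosphatase that switches off MAP kinases, ran from 11.05 to 11.68 under MEF79.2 (median 11.30) and from 11.59 to 11.94 under DMF100 (median 11.81). In 6 of 7 MEF79.2 arrays it lay below all DMF100 arrays, the difference was -0.42 ± 0.12 (adjusted p = 0.0398), and 13 of 26 alternatives lost the call. Tiparp, an ADP-ribosyltransferase that the aryl hydrocarbon receptor induces, was called lower without being on the list. Its levels of 7.41 to 7.78 under MEF79.2 (median 7.57) and 7.83 to 8.19 under DMF100 (median 8.03) did not overlap. The difference was -0.43 ± 0.09 (adjusted p = 0.00757), with 0.16 against vehicle under MEF79.2 and 0.59 under DMF100 (adjusted p = 0.323 and 6.03e-05), and 24 of 25 alternatives kept the call.

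Arc, an activity-induced regulator of glutamate receptor traffic, is named, like the list members after it, with its values seen. It ranged from 8.93 to 9.48 under MEF79.2 and from 9.72 to 10.25 under DMF100 without overlap, and the difference of -0.80 ± 0.25 missed the threshold (adjusted p = 0.0553). With only these arrays fitted, Arc was called (adjusted p = 0.00142). Vehicle brains spread from 7.69 to 9.67, so the spread of Arc outside the compared groups was wide. Fos, Btg2 and Ccn1, each an early response gene, stood at -0.46, -0.70 and -0.69 with overlapping groups and adjusted p of 0.236, 0.0863 and 0.0808. Members also lay the other way without a call, with Fosb, Nptx2 and Ier5 at 0.29, 0.19 and 0.16 (adjusted p = 0.313, 0.296 and 0.202). Nr4a2, Nr4a3, Egr1, Jun and Homer1 lay between -0.11 and 0.05, with adjusted p of 0.395 or more.

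In the combination, Nr4a1, Trib1, Dusp1, Tiparp and Arc were lower than under DMF100. Nr4a1 was lower in the combination than under DMF100 by a difference of -1.17 ± 0.20 (adjusted p = 0.00600), Trib1 by -0.70 ± 0.14 (adjusted p = 0.0159), Dusp1 by -0.62 ± 0.12 (adjusted p = 0.0110), Tiparp by -0.48 ± 0.08 (adjusted p = 0.00677) and Arc by -1.15 ± 0.24 (adjusted p = 0.0284). Of the 26 immediate early genes, 4 were called lower, in a comparison that called 8 genes lower (0.0743%) and 2 higher (0.0186%). Against MEF79.2 the combination called 0 of the 26 in limma (6 at an unadjusted p under 0.05; 0.214% of all genes called), with Nr4a1 at -0.48 (adjusted p = 0.197). The same combination array was the highest for all 3 early genes and reached 8.56 for Nr4a1, 7.72 for Trib1 and 11.90 for Dusp1, inside the DMF100 range, and the median combination array lay at 6.99, 6.90 and 11.17. DMF179.2 against vehicle raised 2 of the 26 (1.01% of all genes rose), Nr4a1 by 0.95 and Arc by 0.97.

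**Figure D3:**
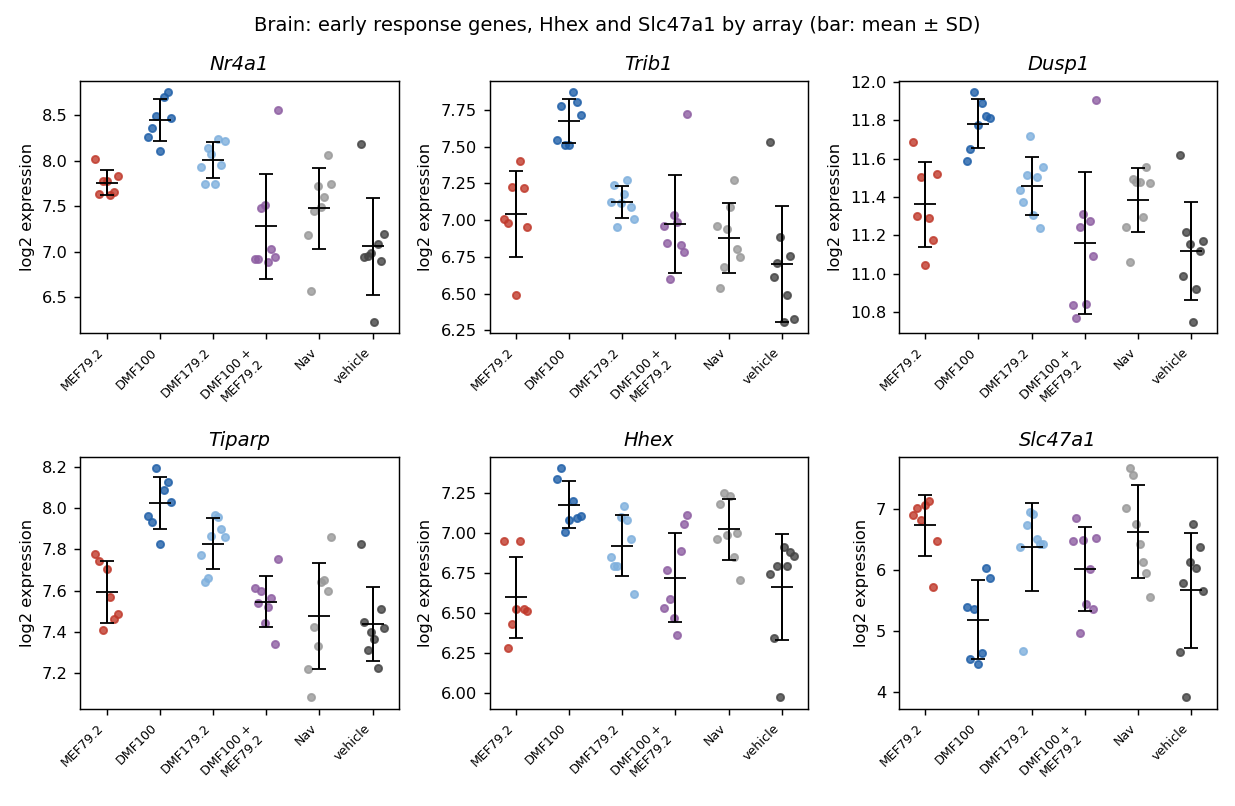
Points are log2 expression levels of single brain arrays in 6 groups for Nr4a1, Trib1, Dusp1, Tiparp, Hhex and Slc47a1, and bars are the mean ± SD. The first 3 genes each have 1 combination array and 1 vehicle array far above the rest of their group, and the MEF79.2 arrays of Nr4a1, Trib1, Tiparp and Hhex lie wholly below the DMF100 arrays.

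The promoter windows of Dusp1 and Nr4a1 are shown because the full cyclic AMP response element, TGACGTCA, or its short form TGACG stands in them. Of all windows, 1.79% hold the full element and 20.8% the short form, which the full one contains on each strand. Dusp1 (chr17:26508423-26508722, minus strand) holds the full element at -143 and a short form at -191, and also the antioxidant core on the opposite strand at -133, outside the capitals. Nr4a1 (chr15:101266596-101266895, plus strand) holds 4 short forms, at -233, -213, -69 and -40, all on the opposite strand. The Tiparp window holds neither form.
Dusp1: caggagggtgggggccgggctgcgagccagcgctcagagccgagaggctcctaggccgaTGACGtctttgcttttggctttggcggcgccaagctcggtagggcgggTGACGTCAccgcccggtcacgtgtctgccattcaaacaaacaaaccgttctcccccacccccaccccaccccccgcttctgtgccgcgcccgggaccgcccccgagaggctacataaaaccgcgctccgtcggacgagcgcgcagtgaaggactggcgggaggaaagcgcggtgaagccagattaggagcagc
Nr4a1: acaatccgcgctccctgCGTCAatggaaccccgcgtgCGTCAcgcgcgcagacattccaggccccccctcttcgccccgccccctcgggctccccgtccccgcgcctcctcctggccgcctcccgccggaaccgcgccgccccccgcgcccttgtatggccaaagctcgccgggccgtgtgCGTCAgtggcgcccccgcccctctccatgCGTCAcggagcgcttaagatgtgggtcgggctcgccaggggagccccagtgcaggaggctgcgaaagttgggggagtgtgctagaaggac

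**Figure D4:**
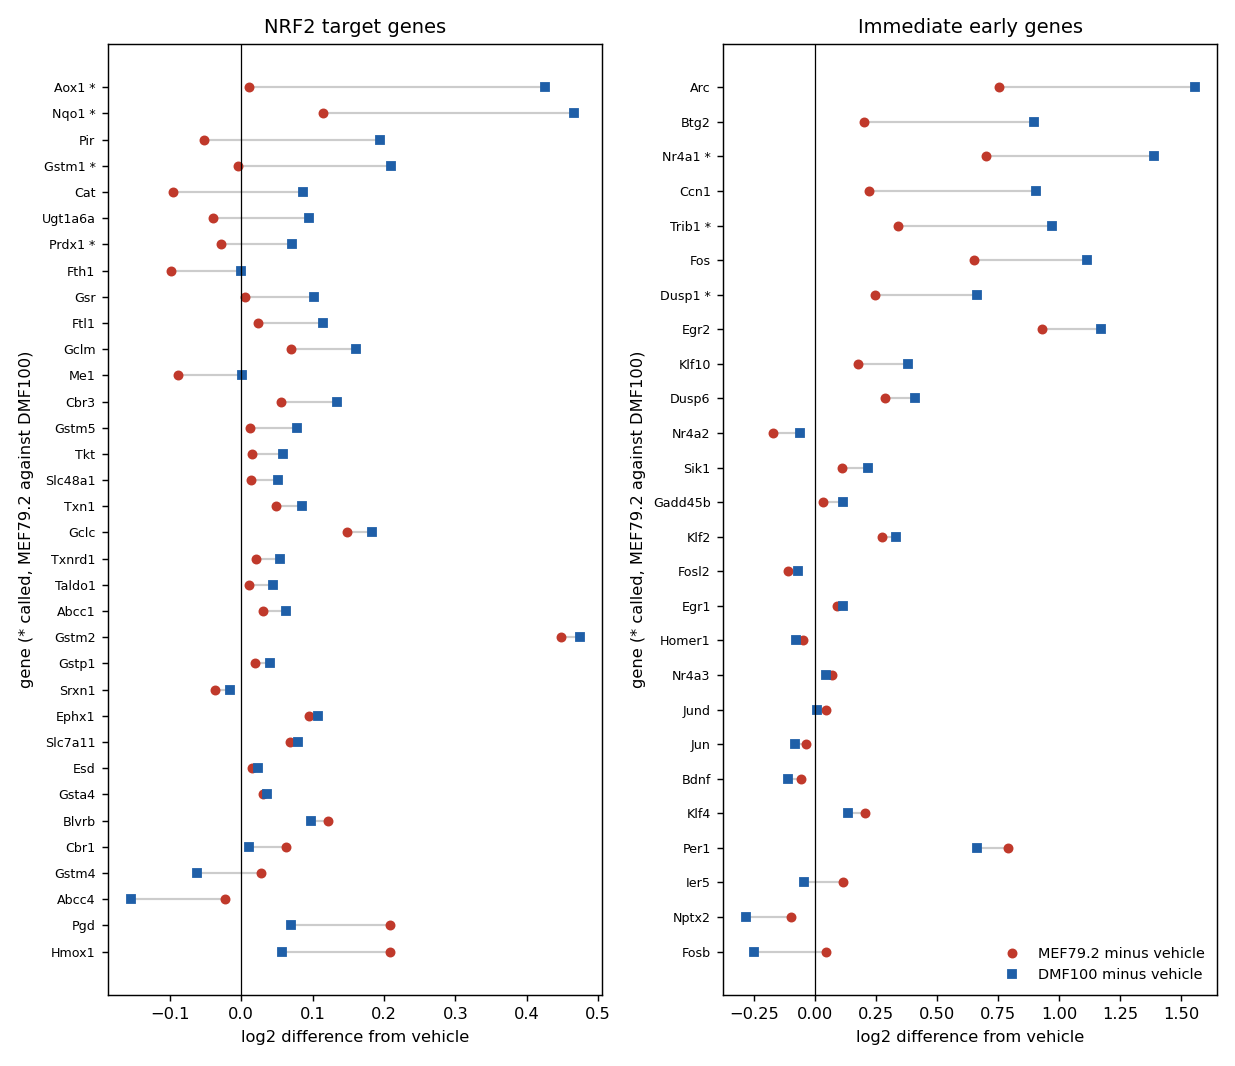
For each tested NRF2 target (left, 34 genes) and immediate early gene (right, 26 genes) the x axis gives the log2 difference from vehicle under MEF79.2 (red circles) and under DMF100 (blue squares), which share the vehicle arrays. Genes are ordered by the difference between the esters, and the widest gaps belong to Aox1 and Nqo1 on the left and to Arc, Btg2 and Nr4a1 on the right.

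Further genes were called lower under MEF79.2. Hhex, a homeobox transcription factor, ranged from 6.28 to 6.95 under MEF79.2 (median 6.53) and from 7.01 to 7.40 under DMF100 (median 7.11), without overlap. The difference was -0.58 ± 0.12 (adjusted p = 0.00855). Against vehicle Hhex stood at -0.06 under MEF79.2 and rose by 0.51 under DMF100 (adjusted p = 0.823 and 0.0334). Trim59, of the tripartite motif family, differed by -0.56 ± 0.11 (adjusted p = 0.00638), with levels of 9.21 to 9.75 under MEF79.2 and 9.78 to 10.26 under DMF100. For Trim59 neither ester was called against vehicle (-0.37 under MEF79.2 and 0.19 under DMF100). Mob3b, a MOB family kinase activator, split without overlap at 7.75 to 8.26 under MEF79.2 and 8.30 to 8.74 under DMF100 (-0.44 ± 0.10). Pi4k2b, a phosphatidylinositol 4-kinase, Ccdc25, Lrif1 and Zbtb10 differed by between -0.47 and -0.41. Lrif1 lost its call in 14 of 25 alternatives, and Zbtb10 differed by -0.21 (adjusted p = 0.0835) at its probe set with the highest mean in brain.

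Hmgcs1, the cytosolic synthase that feeds the mevalonate pathway, was the 1 cholesterol synthesis gene of 19 called (3.53% of all genes were called), and 14 of the 19 lay below 0 with a median of -0.06. It ranged from 5.15 to 5.85 under MEF79.2 (median 5.51) and from 5.81 to 6.13 under DMF100 (median 5.92), and the difference was -0.44 ± 0.09 (adjusted p = 0.00894). The probe set is dim, since the mean of 5.49 under MEF79.2 lies below the filter value of 5.79.

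Among genes that rose, Slc47a1, an exporter of organic cations, had the largest difference. Its levels were 5.72 to 7.14 under MEF79.2 (median 6.90), against 4.45 to 6.03 under DMF100 (median 5.35) and 3.91 to 6.76 in vehicle brains (median 5.91). In 6 of 7 MEF79.2 arrays it exceeded every DMF100 array. The vehicle arrays spanned the whole DMF100 range and reached 6.76, below the MEF79.2 median of 6.90. The difference was 1.55 ± 0.37 (adjusted p = 0.0188), the DMF100 mean of 5.18 lay below the filter value, and neither ester was called against vehicle (1.07 under MEF79.2 and -0.48 under DMF100). Markers of meninges and fibroblasts lay higher in the same comparison at 7 of 8 tested genes, with a median of 0.15 and 0 called by limma (2 at an unadjusted p under 0.05). Their mean level per array ran from 6.85 to 7.28 under MEF79.2 and from 6.86 to 7.08 under DMF100, and their part in the Slc47a1 difference was not tested.

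The smallest p belonged to 8430429K09Rik, a gene that carries only a RIKEN clone name. It ranged from 6.87 to 7.37 under MEF79.2 (median 7.08) and from 6.51 to 6.88 under DMF100 (median 6.69), and the difference was 0.40 ± 0.07 (adjusted p = 0.00434). Of the MEF79.2 arrays 6 of 7 lay above every DMF100 array, and the vehicle mean of 6.92 lay between the means of 7.11 under MEF79.2 and 6.71 under DMF100. Over the 46 brain arrays with group means removed, the genes most like it by Pearson correlation were Ino80c (0.68), Trps1 (-0.67), Cbfa2t3 (-0.65), Vps25 (0.64) and Zfp764 (0.63), all measured on the same arrays and normalization.

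Mirg, a non-coding transcript of the imprinted Dlk1-Dio3 region that hosts miRNAs, ran from 9.18 to 9.59 under MEF79.2 and from 8.89 to 9.16 under DMF100 without overlap (0.39 ± 0.07, adjusted p = 0.00434). Zfp385a, a zinc finger protein, also split without overlap (0.39 ± 0.07), and so did Cog8, a subunit of the Golgi tethering complex (0.41 ± 0.10), whose highest value, 8.24, came from MEF79.2 replicate 25. Scand1, Rtn4rl2 of the Nogo receptor family, the synaptic adhesion gene Lrfn3 and the scavenger receptor gene Stab1 rose by 0.49, 0.44, 0.43 and 0.43, and of these Lrfn3 was called against vehicle (0.38, adjusted p = 0.0365). Ppp1r3g, which directs protein phosphatase 1 to glycogen, Htra3, a secreted protease, Dlgap3, a postsynaptic scaffold, and Wnt5b, a Wnt ligand, rose by between 0.45 and 0.54. Their calls were lost in 14 of 25 alternatives for Ppp1r3g, 16 of 24 for Htra3, 14 of 26 for Dlgap3 and 10 of 25 for Wnt5b, and the smallest differences were 0.36, 0.32, 0.22 and 0.23. Pear1, a receptor on endothelium and platelets, rose by 0.41 ± 0.11, but its other tested probe sets gave 0.02 and 0.01.

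Gpx4 and Idh2 were higher under MEF79.2. Gpx4, the peroxidase that reduces lipid hydroperoxides, ran from 11.37 to 11.70 under MEF79.2 (median 11.44), against 11.19 to 11.35 under DMF100 (median 11.32) and 11.20 to 11.40 in vehicle brains (median 11.31). The esters did not overlap, and the difference was 0.15 ± 0.04 (adjusted p = 0.0222). MEF79.2 raised Gpx4 against vehicle by 0.16 (adjusted p = 0.0412), and DMF100 stood at 0.00. Idh2, the mitochondrial isocitrate dehydrogenase that makes NADPH, rose by 0.14 ± 0.04 between the esters and by 0.18 against vehicle under MEF79.2 (adjusted p = 0.0294 and 0.0277). Both direct calls were lost without replicate 25 of MEF79.2, where Gpx4 differed by 0.11 and Idh2 by 0.13 (adjusted p = 0.0587 and 0.0636). In the list of glutathione peroxidases and synthesis genes 2 of 15 rose (Gpx4 and Oplah) and 1 fell (Mgst1), where 2.65% of all genes rose and 0.883% fell. Of 19 genes of the tricarboxylic acid cycle, Idh2 alone was called, which is near the 3.53% of all genes. Fumarate hydratase, Fh1, differed by -0.02 ± 0.05 (adjusted p = 0.810).

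MEF was given as calcium, magnesium and zinc salts, and of 22 metallothionein and zinc transport genes 1 rose and 1 fell, against 2.65% and 0.883% of all genes. Slc30a3, which loads zinc into synaptic vesicles, ran from 8.75 to 9.44 under MEF79.2 and from 8.65 to 8.76 under DMF100, with a difference of 0.33 ± 0.08 (adjusted p = 0.0134). Slc39a8, an importer of zinc and manganese, ran from 6.01 to 6.46 under MEF79.2 and from 6.36 to 7.05 under DMF100 (-0.43 ± 0.11, adjusted p = 0.0272). The zinc-induced genes Mt1 and Slc30a1 stood at 0.03 and 0.00 (adjusted p = 0.771 and 0.976), and Mt3, a metallothionein of neurons, at -0.03. Mt3 was dim: MEF79.2 replicate 25 stood at 6.61 and the next highest MEF79.2 array at 5.87, near the filter value of 5.79. For Mt3, 4 MEF79.2 arrays lay below every DMF100 array and 1 above. Of 23 genes of calcium and magnesium transport limma called 0, with 4 at an unadjusted p under 0.05. Hcar2, a receptor that fumarate esters activate, lay at 2.08 to 2.17 under MEF79.2 and at 2.08 on all DMF100 arrays, close to the floor of the table, and was not tested.

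Synaptic, clock and stress lists each held 1 or 2 calls, where 3.53% of all genes were called, 2.65% higher and 0.883% lower. Stx1a, a syntaxin of vesicle fusion, and Slc17a7, the vesicular glutamate transporter of cortex, rose by 0.23 ± 0.07 and 0.13 ± 0.04, as 2 of 17 synaptic vesicle genes. Grin2c, a subunit of the NMDA receptor, rose by 0.27 ± 0.07 and Gabrg1, of the GABA-A receptor, fell by 0.26, each the only call of its list (of 12 and 8 tested genes). Dbp, an output gene of the circadian clock, rose by 0.31 ± 0.09 (adjusted p = 0.0400) as the 1 call among 20 clock genes, a share near that of all genes. Atf5 of the stress response rose by 0.25 ± 0.07 as 1 of 24, likewise near it. Rbm3, which rises with cooling and is named with its values seen, differed by -0.38 (adjusted p = 0.220). Against vehicle it stood at 0.47 under MEF79.2 and rose by 0.85 under DMF100 (adjusted p = 0.147 and 0.0114). The Rbm3 mean was 5.89 under DMF179.2, against 6.14 under MEF79.2, 6.51 under DMF100 and 5.66 in vehicle brains.

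Markers of cell types and regions gave few calls. In bulk tissue fewer cells of a type and less RNA per cell cannot be told apart, and the region dissected is not given. All 8 tested oligodendrocyte markers had differences below 0, with a median of -0.25 and 5 at an unadjusted p under 0.05. Ugt8a, which makes the galactolipid of myelin, was the 1 called (3.53% of all genes were called), at 10.16 to 10.54 under MEF79.2 and 10.60 to 11.11 under DMF100 without overlap (-0.39 ± 0.10, adjusted p = 0.0255). The mean level of these markers per array ran from 10.11 to 10.38 under MEF79.2 and from 10.28 to 10.66 under DMF100. Striatal markers lay below 0 at 9 of 10 (median -0.28), markers of choroid plexus and ependyma at 8 of 8 (median -0.24) and thalamic markers at 8 of 8 (median -0.18), each with 0 called by limma (3, 1 and 1 at an unadjusted p under 0.05). The mean level per array of the striatal markers was 8.66 to 9.07 under MEF79.2 and 8.69 to 9.70 under DMF100, and that of the choroid plexus markers 6.09 to 6.44 under MEF79.2 and 6.05 to 7.02 under DMF100. Microglial markers lay above 0 at 6 of 8 (4 of the 8 at an unadjusted p under 0.05). Tmem119, which marks resident microglia, was the 1 called (0.26 ± 0.06, adjusted p = 0.0144). P2ry12 and Aif1 lay below 0, with P2ry12 averaging 7.93 under MEF79.2 and 8.13 under DMF100. Of 9 tested astrocyte markers 1 was called, the bicarbonate transporter Slc4a4, which fell by 0.24 (adjusted p = 0.00935). The median of the astrocyte list was -0.03, with 7 markers below 0 and 2 above, among them Gfap and Aldh1l1. Blood cell markers lay above 0 at 4 of 5 (median 0.21), with 0 called by limma and 1 at an unadjusted p under 0.05. Their largest difference was 0.85, at S100a9, with means of 7.07 under MEF79.2 and 6.22 under DMF100. The S100a9 means were 6.88 in vehicle, 7.13 under DMF179.2 and 6.86 in the combination, so DMF100 was the lowest of these groups. The part of these marker levels in the other differences was not tested.

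Several lists held no call in limma at an adjusted p under 0.05: heat shock chaperones (0 of 18, with 1 at an unadjusted p under 0.05), interferon-stimulated genes (0 of 15, with 2), respiratory chain subunits (0 of 40, with 3), proteasome subunits (0 of 30, with 1) and ribosomal proteins (0 of 33, with 4). Their median differences lay between -0.02 and 0.03. Complement and glial activation genes were also not called (0 of 11, with 6 at an unadjusted p under 0.05), but 9 of the 11 lay above 0 and their median was 0.16.

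Most called differences were not called for either ester against vehicle. The vehicle mean lay between the esters for 268 of the 285 genes that rose and for 81 of the 95 that fell. Against vehicle, MEF79.2 was called for 39 genes (0.362%; 33 higher, 6 lower, the lower being 0.0557%) and DMF100 for 43 (0.4%; 40 higher, 3 lower, the lower being 0.0279%). Of the genes that rose between the esters, 18 were also called for MEF79.2 against vehicle and 0 for DMF100. Of those that fell, 4 were also called for MEF79.2 and 12 for DMF100, among them Nr4a1, Trib1, Dusp1, Tiparp, Hhex, Nqo1, Gstm1 and Aox1. These counts share arrays with the direct comparison and describe where the vehicle lay.

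The same contrast in other tissues called 1437 genes in mesenteric lymph node (13.5%), 257 in kidney (2.4%), 55 in inguinal lymph node (0.521%), 15 in jejunum (0.138%), 10 in spleen (0.0948%) and 0 of 10378 in blood by limma (975 at an unadjusted p under 0.05). Nqo1 was called lower under MEF79.2 also in inguinal lymph node (-0.66), mesenteric lymph node (-0.78) and jejunum (-0.79), and stood at -1.10 in spleen, -0.55 in blood and 0.07 in kidney without a call (adjusted p = 0.165, 0.439 and 0.661). Gstm1 was called lower in jejunum (-1.51) and stood at 0.08 in kidney. The difference in brain minus the mean difference in the other 6 tissues was called for 11 of 7849 genes tested in every tissue (0.14%), and 240 of the 7849 were called in brain. The smallest adjusted p of this limma test, 8.73e-04, belonged to Btg2 (-0.72 ± 0.13) and Serpinb1a (-0.56 ± 0.10). Both are named with their values seen, and neither was called in brain alone. Trib1 was among the 11, at -0.68 ± 0.14 (adjusted p = 0.0112). It stood at -0.63 in brain and was higher under MEF79.2 in kidney (0.43, adjusted p = 0.0165). Pear1 (0.41 ± 0.10) and Hmgcs1 (-0.47 ± 0.11) also differed from the other tissues. Nr4a1 and Aox1 were not tested in every tissue. For Nqo1 and Gstm1 brain stood 0.28 ± 0.20 and 0.23 ± 0.14 above the other tissues' mean difference (adjusted p = 0.773 and 0.738).

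**Figure D5:**
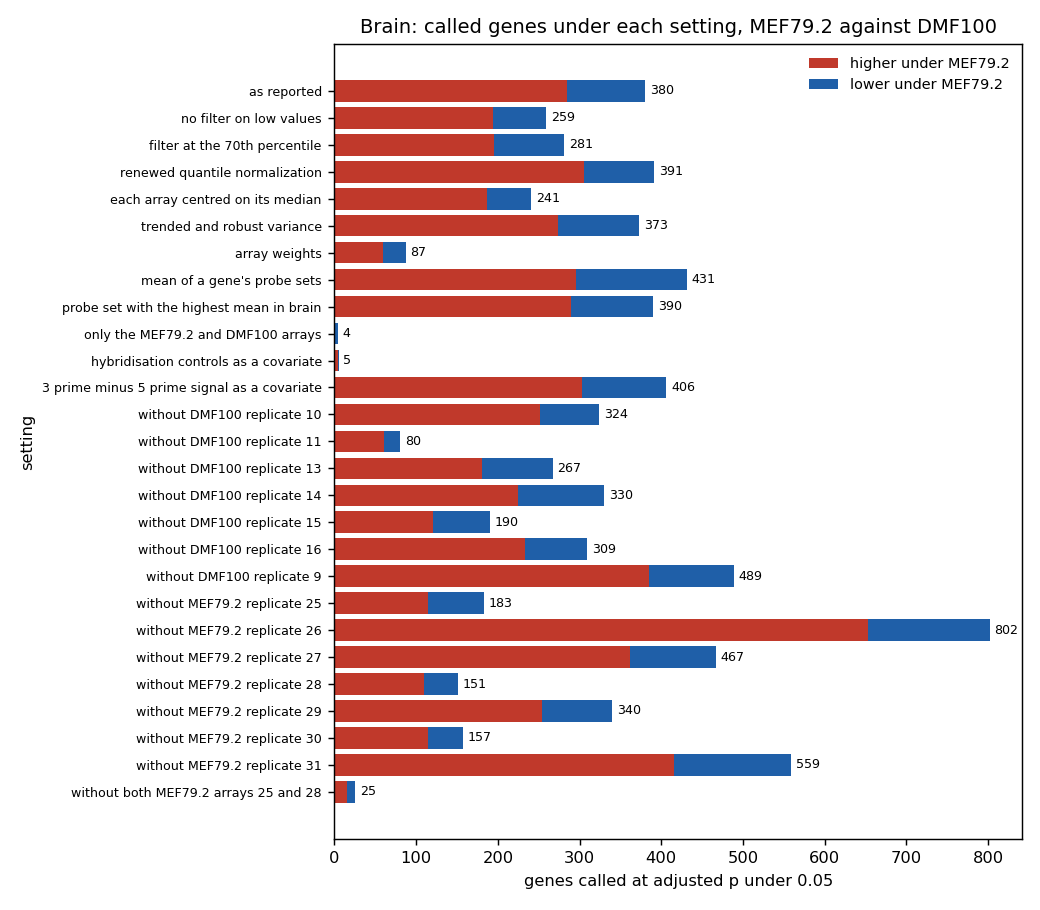
Bars give the number of brain genes called between MEF79.2 and DMF100 at an adjusted p under 0.05 in the reported fit and in each alternative, with genes higher under MEF79.2 in red and lower in blue. The count is 380 as reported, 4 and 5 in the smallest fits and 802 without MEF79.2 replicate 26.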

How the data were processed

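The authors deposited log2 expression levels for 45141 probe sets on 308 Affymetrix HT MG-430 PM arrays in 1 table. Per the submitters' processing notes, RMA, GCRMA, R 2.11.1 and limma 3.4.5 were used, without a statement of which tool did which step. Groups were taken from the titles, and the study's design text gives 6 to 10 mice per group, so p-values measure the spread between these animals' arrays.

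The values were used as deposited. Of the probe sets, 28898 carry 1 gene symbol, 551 several and 15692 none, and 17097 genes were each represented by their brightest probe set, judged by its mean across the series. Genes above the 50th percentile of brain values in at least 5 brain arrays were tested with limma 3.58.1 in R 4.3.3, fitted to all 46 brain arrays with 6 group means. Values after ± are SE beside differences and SD beside means. Calls are genes at a Benjamini-Hochberg adjusted p under 0.05. Named genes were the 15 largest called differences each way, up to 4 called members of each list, and a fixed set, and others are said to be named with their values seen. The members and lists were chosen with earlier results of these data known. Alternatives covered the filter, normalization, variance, array weights, covariates, probe sets and single arrays. The fit was tested on simulated data with independent noise for each gene and array, so without deviations shared across an array. It called 182 genes there, 13 of them falsely. Of the changes put in, it recovered 54% at 1.15-fold, 84% at 1.25-fold and 100% at 1.5-fold. Promoter windows come from RefSeq (GRCm38.p6).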

Additional observations from a re-analysis of the deposited data

Results flagged for a closer look

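Gaps to the rest of the group marked 10 of 118 groups of 7 values of the named genes, where chance alone marks about 5%, and 6 of the 10 came from MEF79.2 replicate 25. On that array Ppp1r3g was at 6.93, Cog8 at 8.24, Gpx4 at 11.70, Oplah at 7.50, Mt1 at 12.60 and Mt3 at 6.61, each far from the other 6 MEF79.2 arrays. Lrif1 was at 6.71 in MEF79.2 replicate 29. Among DMF100 arrays, Gpx4 was at 11.19 in replicate 11, Stx1a at 9.73 in replicate 14 and Cbr3 at 8.13 in replicate 16. The median correlation with the group was 0.99 for MEF79.2 replicate 25 and 0.99 for DMF100 replicate 11, both low within their groups.

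Among the genes named by rule, the brain difference departed from the mean of the other 6 tissues, by the interaction test, for Trib1 (-0.68), Pear1 (0.41) and Hmgcs1 (-0.47). The Pear1 value rests on 1 of its 3 tested probe sets.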

How the results depend on the processing

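Against 380 genes called (285 higher and 95 lower under MEF79.2), centring each array on its median gave 241 (187 higher, 54 lower), array weights 87 (59 higher, 28 lower), fitting only the MEF79.2 and DMF100 arrays 4 (0 higher, 4 lower), and the hybridisation control signal as a covariate 5 (4 higher, 1 lower). The cause was not tested. Leaving out single arrays gave 80 to 802 genes, 61 to 653 higher and 19 to 149 lower. The count moved by over 1.5 times without DMF100 replicate 11 (80) or 15 (190) and without MEF79.2 replicate 25 (183), 26 (802), 28 (151) or 30 (157). The higher count alone so moved without DMF100 replicate 13 (180), and the lower count alone without MEF79.2 replicate 31 (143). Without replicates 25 and 28 of MEF79.2, an alternative added after seeing the data, 25 genes were called (15 higher, 10 lower), among them 0 NRF2 targets and 0 immediate early genes, while Tiparp, Hhex, Mirg, Hmgcs1 and 8430429K09Rik were called. Other filters, quantile normalization, a trended variance, other probe set choices and the 3 prime minus 5 prime covariate gave counts within 1.5 times of the reported one. No called difference of a named gene changed sign under the alternatives run, while those of Gclc, Srxn1, Slc7a11, Gsta4, Mt1, Mt3, Slc30a1, Fh1 and Nfe2l2, none of them called, crossed 0 in at least 1. No paired analysis was possible because MEF79.2 and DMF100 brain arrays share no replicate number. Across tissues the numbers recur, and a replicate block gave 12 called genes for brain minus the other tissues, against 11 without it. Same-numbered arrays of brain and another tissue deviated together only weakly, with median correlations of 0.048 to 0.242. Values near the floor of the table, where 18.5% of brain values lie, limit what dim genes can show.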
